A study of Mus musculus with 8 samples.

Results

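The 10 WNT ligand genes described here are Wnt2, Wnt4, Wnt5a, Wnt5b, Wnt6, Wnt7a, Wnt7b, Wnt9a, Wnt11 and Wnt16, out of 23420 gene symbols in the count tables. They were taken by symbol from a list of WNT genes of the uterus. The rule uses no measured value, though the list was drawn up with earlier results of these data known. The tables hold 9 further Wnt genes, which makes 19 in all. RNA of uterine stromal cells was sequenced in 8 libraries from mice, all labelled day 3, of which 4 carry the genotype label Erbb3f/f and 4 the label Erbb3d/d. By convention, f denotes a gene copy that Cre recombinase can excise and d the copy left after excision. The series title ties stromal Erbb3 to the shaping of uterine glands. The Cre driver, the age of the females, the event from which day 3 was counted and the number of animals per library are not given in the sources used here, so p-values measure only the spread between these libraries, which may be technical.

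WNT proteins are secreted, lipid-bearing signals that bind Frizzled receptors together with LRP or ROR co-receptors on nearby cells. In the β-catenin branch this keeps β-catenin from being degraded, and it then activates genes with TCF/LEF factors. Other branches act on cell shape and polarity, with Wnt5a as the usual example. In the mouse uterus, WNT signals pass between epithelium and stroma, and mice that lack Wnt7a or Wnt4 have defects of the female tract or its glands. From general knowledge, Wnt2, Wnt4, Wnt5a, Wnt6 and Wnt16 were treated as stromal ligands and Wnt7a, Wnt7b and Wnt11 as epithelial ligands. Wnt5b and Wnt9a were placed in neither set, and Wnt4 is also known in uterine epithelium.

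Depth and cell makeup bear on all values below. Reads in genes numbered 8578575 to 12854367 per library. Erbb3, a receptor of the ERBB family (chr10:128567523-128589652, minus strand, GRCm38), gave 9.64 ± 2.24 CPM (SD, n = 4) in libraries labelled Erbb3f/f and 13.9 ± 4.56 (SD, n = 4) in those labelled Erbb3d/d, where CPM is the read count scaled to a common library size. The libraries ran from 7.40 to 12.3 CPM and from 7.37 to 17.65 CPM. It was not lower under the Erbb3d/d label (edgeR quasi-likelihood test, adjusted p = 0.485), so each direction below is between labels. A whole-gene count need not show the loss of an exon, and why Erbb3 was not lower was not tested. On the first principal component (36.7% of the variance) Erbb3d/d replicates 3 and 4 stood apart at 38.4 and 48.0, and Erbb3d/d replicate 2, at -19.8, fell inside the range of Erbb3f/f. Stromal markers were abundant in every library (summed 14459 to 23479 CPM over 15 genes, Pdgfra at 520 to 999 CPM). Epithelial markers were present as well, summing over 20 genes to 1228 to 2078 CPM in Erbb3f/f and 1861 to 3147 CPM in Erbb3d/d. Smooth muscle markers summed over 12 genes to 1885 to 3108 CPM and 2994 to 6271 CPM. No listed marker was at 0 in every library, so the libraries hold RNA beyond the labelled cell type. In such bulk samples, fewer cells of a type and less RNA per cell cannot be told apart.

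No WNT ligand passed an adjusted p of 0.05 between the genotypes (edgeR quasi-likelihood test, Benjamini-Hochberg over 14598 genes). The background was the same, with 0% of all tested genes called. At an unadjusted p under 0.05, 2 of the 9 ligands tested, Wnt7a and Wnt7b, were higher in Erbb3d/d, against 6.64% of all genes in that direction, and none was lower, against 4.97% (11.6% in either direction). DESeq2 called the same 2 ligands and 270 genes (1.78% of 15210). Without Erbb3d/d replicate 2, edgeR called 259 genes (1.75%) and no ligand, with adjusted p of 0.0625 for Wnt7a and 0.0735 for Wnt7b. Of the 9 ligands, 4 had a fitted log2 fold change above 0, against 48% of all genes, and their median was -0.13 against -0.01 over all genes. Wnt2 had too few reads for the fit.

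The sequences upstream of Wnt4, Wnt7a and Wnt11 are shown first, since Wnt4 and Wnt7a had much alike values across libraries and Wnt11 was the ligand among those tested whose groups did not overlap. They come from RefSeq (GRCm38.p6), whose promoter table matched 8 of the 10 ligands, and are printed 5′ to 3′ on the strand of the gene, ending before the first annotated start. Capitals mark the GC box (GGGCGG), the core of a TCF/LEF site (CTTTGA) and the TATA box (TATAAA), each on either strand and with overlapping matches counted. Wnt4 lies at chr4:137277385-137277488 (plus strand), Wnt7a at chr6:91411364-91411603 (minus strand) and Wnt11 at chr7:98834862-98835111 (plus strand).
Wnt4: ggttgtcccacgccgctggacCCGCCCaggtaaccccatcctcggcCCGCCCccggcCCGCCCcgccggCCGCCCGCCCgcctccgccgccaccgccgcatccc
Wnt7a: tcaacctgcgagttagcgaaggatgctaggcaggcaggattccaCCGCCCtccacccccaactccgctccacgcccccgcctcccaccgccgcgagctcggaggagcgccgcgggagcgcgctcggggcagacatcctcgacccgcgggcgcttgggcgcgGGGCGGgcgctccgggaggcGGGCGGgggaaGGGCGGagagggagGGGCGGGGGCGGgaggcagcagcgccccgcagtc
Wnt11: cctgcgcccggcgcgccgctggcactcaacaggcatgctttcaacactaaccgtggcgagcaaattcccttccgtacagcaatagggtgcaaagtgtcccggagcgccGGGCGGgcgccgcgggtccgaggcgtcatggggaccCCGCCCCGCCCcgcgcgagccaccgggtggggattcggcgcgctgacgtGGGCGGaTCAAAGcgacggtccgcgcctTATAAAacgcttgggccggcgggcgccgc
The stretch of 104 bases before Wnt4 holds 5 GC boxes. That of 240 bases before Wnt7a holds 6 and that of 250 bases before Wnt11 holds 4, so these counts are over unlike lengths. Wnt11 alone of these 3 has a TATA box, 29 bases before its start, and a TCF/LEF core, 50 bases before it. Another RefSeq window of Wnt11, not printed, holds none of the 3 motifs. In the full windows of 250 bases, Wnt4 had 8 GC boxes, Wnt7a and Wnt6 had 6 each, Wnt9a had 5 and Wnt16 had 0. Among 32851 RefSeq windows of that length, 32.7% hold at least 1 GC box, 4.09% at least 4 and 0.886% at least 6. A TCF/LEF core is found in 13.8% and a TATA box in 12.4%. These letters are a description of sequence and were not tested for binding.

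Per unit length, the ligand levels in libraries labelled Erbb3f/f were led by Wnt5a. Levels are given here as RPKM, the CPM divided by kilobases of merged exons (GENCODE vM21). Wnt5a stood at 111.8 ± 19.7 RPKM (SD, n = 4), or 48.0% of the summed level of the 10 ligands, and its range did not overlap that of Wnt9a at 37.0 ± 12. Below Wnt9a came Wnt4 (28.0 ± 19.9), Wnt5b (15.0), Wnt16 (12.9), Wnt7a (11.5 ± 7.53) and Wnt6 (10.2), each overlapping its neighbour in the order. Wnt11 (3.89) lay below Wnt6 without overlap, Wnt7b (2.29) overlapped Wnt11, and Wnt2 (0.182) was lowest, without overlap with Wnt7b.

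In the libraries labelled Erbb3d/d, Wnt5a had the highest mean with 87.1 ± 25.7 RPKM (SD, n = 4), 30.0% of the sum. Within libraries, Wnt4 exceeded Wnt5a in replicates 3 (111 against 95 RPKM) and 4 (99.8 against 52.4), and Wnt7a did in replicate 4 (71.9). Wnt4 came next at 70.8 ± 41.2 RPKM, then Wnt7a at 52.6 ± 31.9, ahead of Wnt9a at 33.8 ± 2.0. The ranges of these 4 ligands overlapped from one neighbour to the next. Only Wnt9a over Wnt5b (17.5) and Wnt11 (3.10) over Wnt2 (0.312) were separated. Wnt7a held rank 6 in Erbb3f/f and rank 3 in Erbb3d/d. Using the longest transcript in place of merged exons kept the Erbb3f/f rank of 8 of the 10 ligands.

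**Figure D1:**
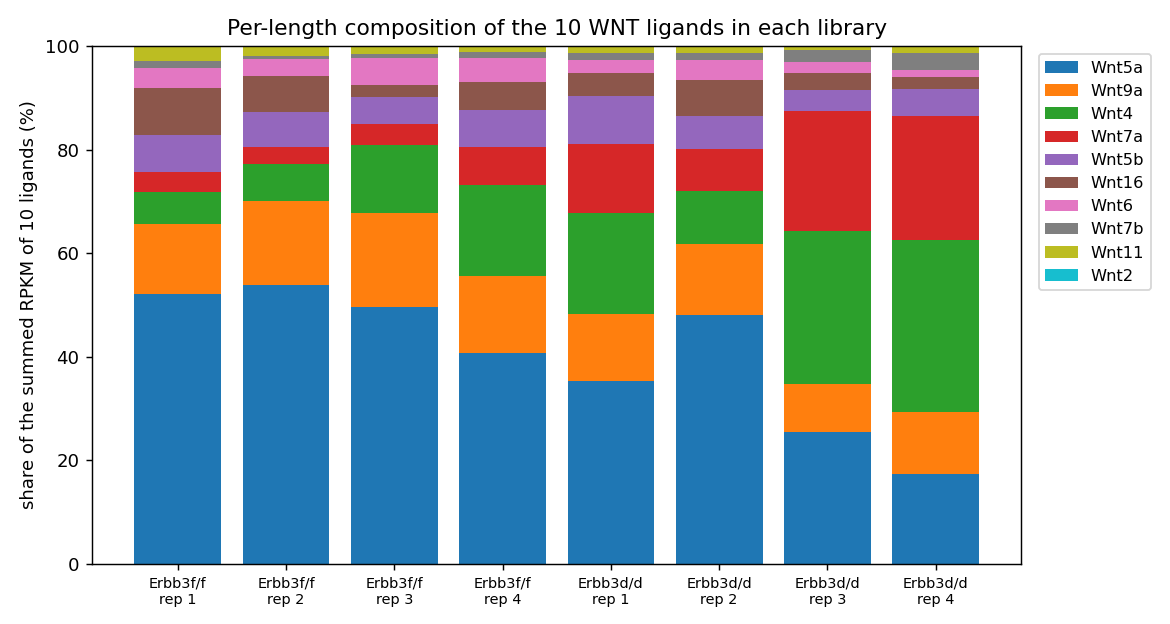
Share of each WNT ligand in the summed RPKM of the 10 ligands (vertical axis, percent) in each of the 8 libraries (bars). Wnt5a takes 40.6% to 53.9% of the sum in Erbb3f/f and 17.4% to 48.0% in Erbb3d/d, while Wnt4 reaches 29.5% and 33.2% and Wnt7a 23.1% and 23.9% in Erbb3d/d replicates 3 and 4.

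Wnt7a, the epithelial ligand whose loss leaves the mouse uterus without glands, showed the largest fitted difference of the 9 ligands tested. It gave 20.6, 20.3, 34.2 and 71.0 CPM in Erbb3f/f replicates 1 to 4 and 103, 60.8, 275 and 228 CPM in Erbb3d/d replicates 1 to 4. In Erbb3d/d, 3 of 4 libraries lay above every Erbb3f/f library, and replicate 2 lay below Erbb3f/f replicate 4, so the groups overlapped. The means were 36.5 ± 23.9 and 167 ± 101 CPM (SD, n = 4), with a log2 fold change of 2.20 (SE 0.56, 95% interval 0.92 to 3.47). It passed neither edgeR's quasi-likelihood test (adjusted p = 0.279) nor the exact permutation test (p = 0.0571, two-sided, 4 against 4). DESeq2 gave an adjusted p of 0.0421. The gene lies at chr6:91363981-91411363 (minus strand, GRCm38, GENCODE vM21, as are the gene positions below).

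Wnt7b, its close relative and also an epithelial ligand, gave 11.7, 5.86, 9.98 and 17.3 CPM in Erbb3f/f and 18.0, 14.3, 40.3 and 48.7 CPM in Erbb3d/d, in replicate order, on 56 to 555 reads. Again Erbb3d/d replicates 3 and 4 were highest and replicate 2 overlapped the Erbb3f/f range. Its means were 11.2 ± 4.74 and 30.3 ± 16.8 CPM (SD, n = 4), with a log2 fold change of 1.44 (SE 0.44, 95% interval 0.44 to 2.45). The edgeR adjusted p was 0.311, the exact permutation p was 0.0571 and the DESeq2 adjusted p was 0.0260. The gene lies at chr15:85535437-85582473 (minus strand) and shares 324 exonic bases with the antisense gene AU022754. The libraries carry no strand information, so reads there cannot be assigned to one gene.

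Wnt11, known in glandular epithelium, had lower values in Erbb3d/d. Its values were 20.5, 14.2, 15.6 and 14.1 CPM in Erbb3f/f and 11.7, 13.5, 12.2 and 13.9 CPM in Erbb3d/d. Every Erbb3d/d library lay below every Erbb3f/f library, although the nearest pair differed by little. It was the only ligand of the 9 tested without overlap, against 5.04% of all genes. The means were 16.1 ± 2.98 and 12.8 ± 1.04 CPM (SD, n = 4), with a log2 fold change of -0.33 (SE 0.17, 95% interval -0.70 to 0.04). The exact permutation p was 0.0286, the smallest that 4 against 4 allows. Groups without overlap always give this value, so it restates the separation, and it was not adjusted over the ligands. The edgeR adjusted p was 0.481. The gene lies at chr7:98835112-98855195 (plus strand) and shares 364 exonic bases with the pseudogene Gm8398.

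**Figure D2:**
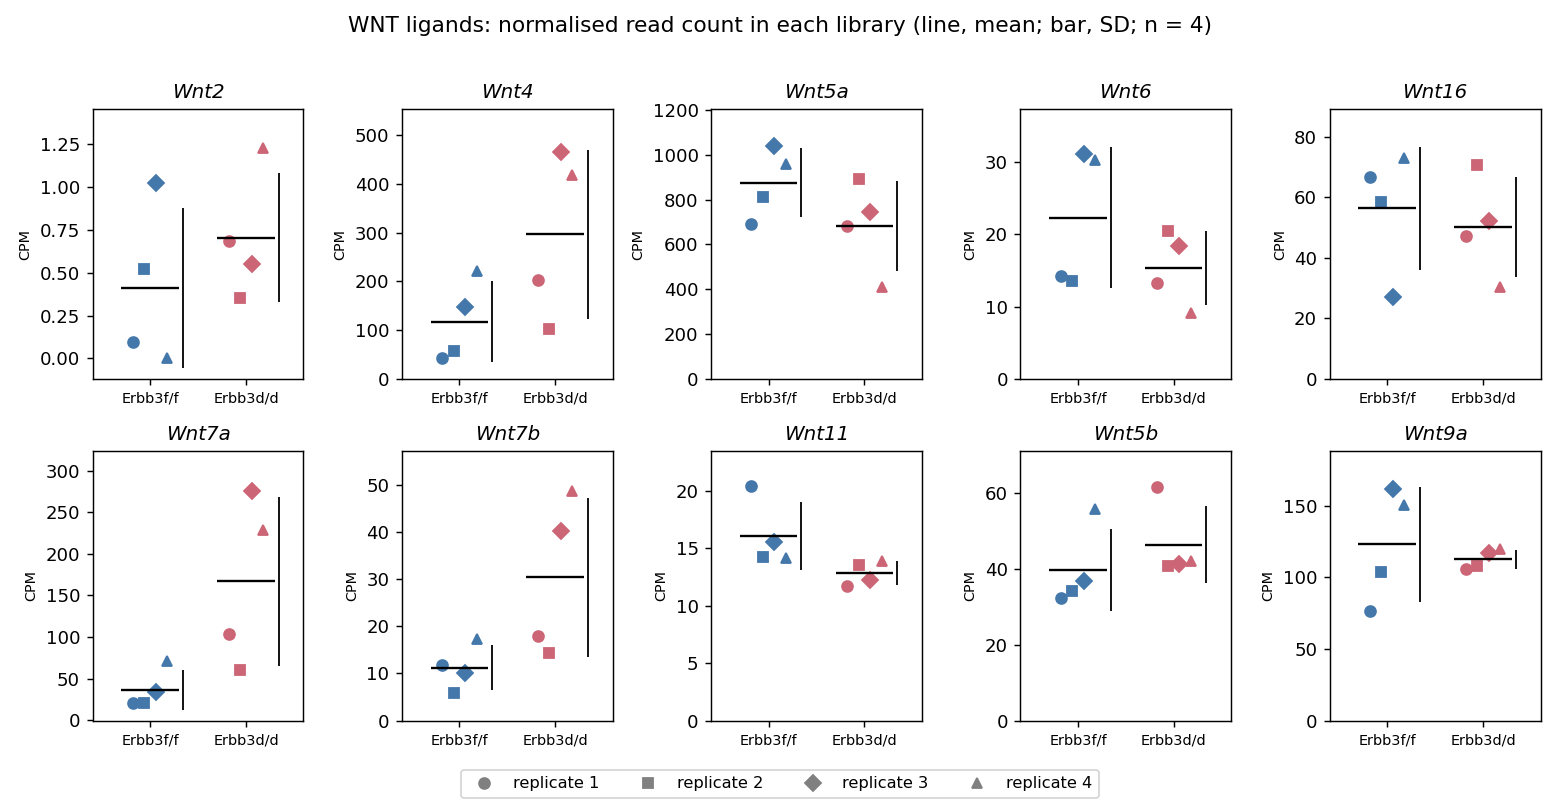
Normalised read count (vertical axis, CPM) of each WNT ligand in each library, with 1 point per library, a line at the group mean and a bar of 1 SD (n = 4). Erbb3d/d replicates 3 and 4 are highest for Wnt4, Wnt7a and Wnt7b, and Wnt11 is the ligand among those tested whose groups do not overlap.

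Among the stromal ligands, Wnt4 is needed to form the Müllerian duct and for decidualization. Wnt4 varied with Wnt7a across libraries (Pearson r 0.94 of log2 CPM, a description with no p), though the order of the libraries differed in part. It lies at chr4:137277489-137299726 (plus strand) and gave 43.1, 57.9, 147 and 221.5 CPM in Erbb3f/f and 203, 102, 464 and 419 CPM in Erbb3d/d. Only Erbb3d/d replicates 3 and 4 lay above the Erbb3f/f range. Means were 117 ± 83.3 and 297 ± 173 CPM (SD, n = 4), with a log2 fold change of 1.34 (SE 0.61, 95% interval -0.03 to 2.71). Neither edgeR (adjusted p = 0.438) nor the exact permutation test (p = 0.143) called it.

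Wnt5a, the main ligand of the polarity branch and the most abundant here, gave 692, 810, 1038 and 958 CPM in Erbb3f/f and 682, 890, 744 and 410 CPM in Erbb3d/d. Erbb3d/d replicate 4 was the lowest library and the groups overlapped. Means were 875 ± 154 and 681 ± 201 CPM (SD, n = 4), with a log2 fold change of -0.36 (SE 0.22, edgeR adjusted p = 0.549). The 95% interval, -0.85 to 0.13, includes 0. The log2 fold change was -0.18 without Erbb3d/d replicate 4, -0.098 with the epithelial and -0.013 with the smooth muscle marker mean as covariate. Wnt5a (chr14:28504750-28527448, plus strand) shares 358 exonic bases with the antisense gene Gm2670.

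Wnt6, a ligand linked to stromal growth in the decidua (chr1:74771892-74785322, plus strand), gave 14.2, 13.6, 31.1 and 30.3 CPM in Erbb3f/f and 13.3, 20.4, 18.4 and 9.12 CPM in Erbb3d/d. The upper Erbb3f/f pair, replicates 3 and 4, lay above all Erbb3d/d libraries and the lower pair lay within their range. Its log2 fold change was -0.55 (SE 0.34, edgeR adjusted p = 0.561). Wnt16, a stromal ligand of the neonatal uterus (chr6:22288227-22298522, plus strand), gave 66.6, 58.5, 27.0 and 73.0 CPM and 47.1, 70.7, 52.0 and 30.5 CPM. The groups overlapped over most of their range, with a log2 fold change of -0.17 (SE 0.33, edgeR adjusted p = 0.875).

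Wnt2, known from lung and placental development (chr6:17988940-18030585, minus strand), was at the limit of detection. It had 1, 5, 13 and 0 reads in Erbb3f/f and 7, 3, 7 and 14 reads in Erbb3d/d, or 0.411 ± 0.466 and 0.704 ± 0.376 CPM (SD, n = 4). A difference was not detectable at this depth (exact permutation test, p = 0.286).

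The ligands placed in neither set showed no difference past the tests. Wnt5b, a relative of Wnt5a (chr6:119432531-119544347, minus strand), gave 32.4, 34.2, 36.8 and 55.9 CPM in Erbb3f/f and 61.7, 40.7, 41.3 and 42.1 CPM in Erbb3d/d, with a log2 fold change of 0.22 (SE 0.20, edgeR adjusted p = 0.702). It was 0.057 without Erbb3d/d replicate 1 and 0.43 without Erbb3f/f replicate 4. In each genotype a single library stood above the other 3. Wnt9a, a ligand known from joint formation (chr11:59306928-59333552, plus strand), gave 76.3, 104, 162 and 150 CPM in Erbb3f/f and 106, 108, 117 and 120 CPM in Erbb3d/d. The Erbb3d/d values lay inside the Erbb3f/f range (log2 fold change -0.13, SE 0.21, edgeR adjusted p = 0.846). Its SD was 40.1 CPM in one genotype and 6.64 CPM in the other.

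Of the 9 further Wnt genes in the tables, 2 passed the filter on low counts. Wnt10b had 0.870 ± 0.621 and 1.45 ± 0.800 CPM (SD, n = 4) and Wnt2b 10.8 ± 5.59 and 7.74 ± 2.07 CPM, with edgeR adjusted p of 0.730 and 0.593. Wnt10a, named after its values were seen because DESeq2 called it, had 6 to 31 reads per library in Erbb3f/f and 1 to 4 reads in Erbb3d/d.

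Set against each other, the epithelial ligands took a larger share in the libraries labelled Erbb3d/d. Their part of the RPKM summed over the 8 placed ligands was 10.3%, 7.45%, 8.08% and 12.5% in Erbb3f/f and 20.4%, 13.4%, 30.2% and 34.2% in Erbb3d/d. The groups did not overlap, though Erbb3d/d replicate 2 lay close to Erbb3f/f replicate 4. Summed CPM of the epithelial ligands ran from 40.4 to 102 in Erbb3f/f and from 88.7 to 327 in Erbb3d/d. Summed CPM of the stromal ligands ran from 816 to 1283 and from 869 to 1279. Mean log2 CPM of epithelial minus stromal ligands was -0.93 ± 0.46 and -0.12 ± 0.55 (SD, n = 4), a difference of 0.81, or 1.10 without Wnt4. On this scale the groups overlapped, with Erbb3d/d replicate 2 (-0.70) below Erbb3f/f replicates 1 (-0.49) and 4 (-0.58). Wnt2 has equal weight on this scale, and its 1 and 0 reads in those Erbb3f/f libraries raise their balance. The balance without Wnt2 was not computed. The higher epithelial sum rests on Wnt7a and Wnt7b, since Wnt11 was lower in Erbb3d/d. No test was run on the share, the sums or the balance.

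The epithelial marker level was highest in the libraries where Wnt7a, Wnt7b and Wnt4 were highest. Mean log2 CPM of the 20 markers was 5.99, 5.96, 5.43 and 6.18 in Erbb3f/f and 6.03, 6.06, 6.69 and 6.78 in Erbb3d/d, so the same 2 Erbb3d/d libraries were highest (exact permutation test of the means, p = 0.143). Of these markers 17 of 20 had higher fitted values in Erbb3d/d, against 48% of all genes, for example Epcam at 77.6 ± 20.3 and 153 ± 53.9 CPM (SD, n = 4), and 12 of 20 were higher at an unadjusted edgeR p under 0.05, against 6.64% of all genes. Of the smooth muscle markers 11 of 12 had higher fitted values (exact permutation test of the list means, p = 0.0571). At an unadjusted edgeR p under 0.05, 11 of the 12 were higher, against the same 6.64%. Of the stromal markers 4 of 15 had higher fitted values (p = 0.0857 by the same exact test). At such an edgeR p, 5 of the 15 were lower, against 4.97% of all genes. In none of these lists did edgeR call a gene over all 8 libraries.

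Over the 8 libraries Wnt7b correlated with the epithelial level at Pearson r 0.85 (permutation p = 0.00823, adjusted p = 0.153 over 27 relations) and Spearman rho 0.90 (permutation p = 0.00456, adjusted p = 0.123). For Wnt7a, r was 0.80 (permutation p = 0.0206, adjusted p = 0.153) and rho 0.83 (permutation p = 0.0154, adjusted p = 0.138). In deviations from the genotype means, r was 0.74 for Wnt7b, 0.64 for Wnt7a and 0.43 for Wnt4. Without Erbb3d/d replicates 3 and 4, r was 0.41 for Wnt7b and 0.34 for Wnt7a, so both relations were weaker without them. These had the highest marker levels, so leaving them out also narrows the marker range. For Wnt4, r was 0.64 (permutation p = 0.0786, adjusted p = 0.212) and rho 0.76 (permutation p = 0.0368, adjusted p = 0.198), and r was 0.0041 without those libraries. None of the 27 relations of 9 ligands with 3 marker lists passed adjustment.

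With the epithelial marker mean as a covariate in edgeR, the log2 fold change was 1.2 for Wnt7a, 0.52 for Wnt7b and 0.58 for Wnt4. Without Erbb3d/d replicates 3 and 4 together, it was 1.18, 0.54 and 0.38. The smooth muscle marker mean as covariate gave 3.02, 1.81 and 2.48. No ligand was called in these 3 fits. Wnt11 stood at -0.36 with the epithelial covariate and at -0.35 without those libraries. Erbb3, at 0.53 over all libraries, stood at 0.10 with the epithelial covariate and at 0.17 without those libraries. It was 0.96 with the smooth muscle covariate. Measured against the epithelial mean within each library, Wnt7a was at -0.89 ± 0.84 and 0.75 ± 0.66 log2 units (SD, n = 4; exact permutation p = 0.0571, adjusted p = 0.114 over 4 ligands). The corresponding difference was 0.84 for Wnt7b, 0.91 for Wnt4 and -0.81 for Wnt11, and no adjusted exact permutation p was under 0.114. These 4 ligands were picked with earlier results known. The adjustment covers them alone and not all tested ligands, so it is too lenient. How far the share of epithelium accounts for the ligand values was not tested.

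**Figure D3:**
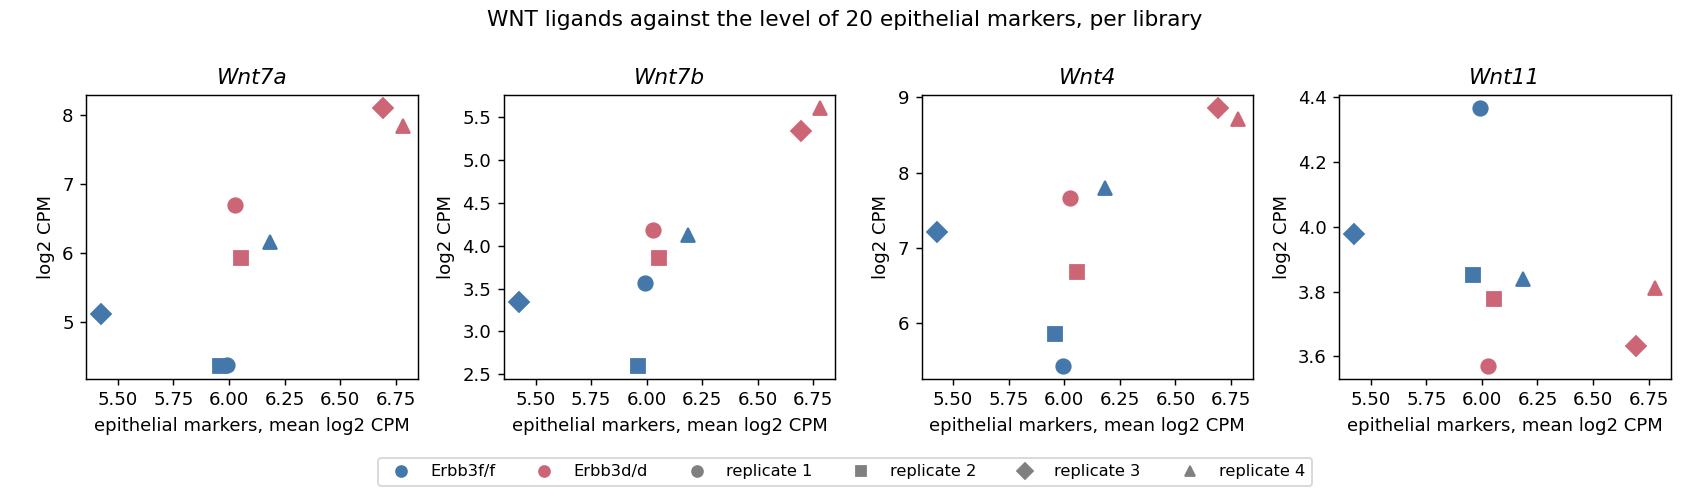
Level of 4 WNT ligands (vertical axis, log2 CPM) against the mean log2 CPM of 20 epithelial markers (horizontal axis), with 1 point per library. Erbb3d/d replicates 3 and 4, at 6.69 and 6.78 on the horizontal axis, hold the highest Wnt4, Wnt7a and Wnt7b values, while Wnt11 is highest in Erbb3f/f replicate 1.

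**Figure D4:**
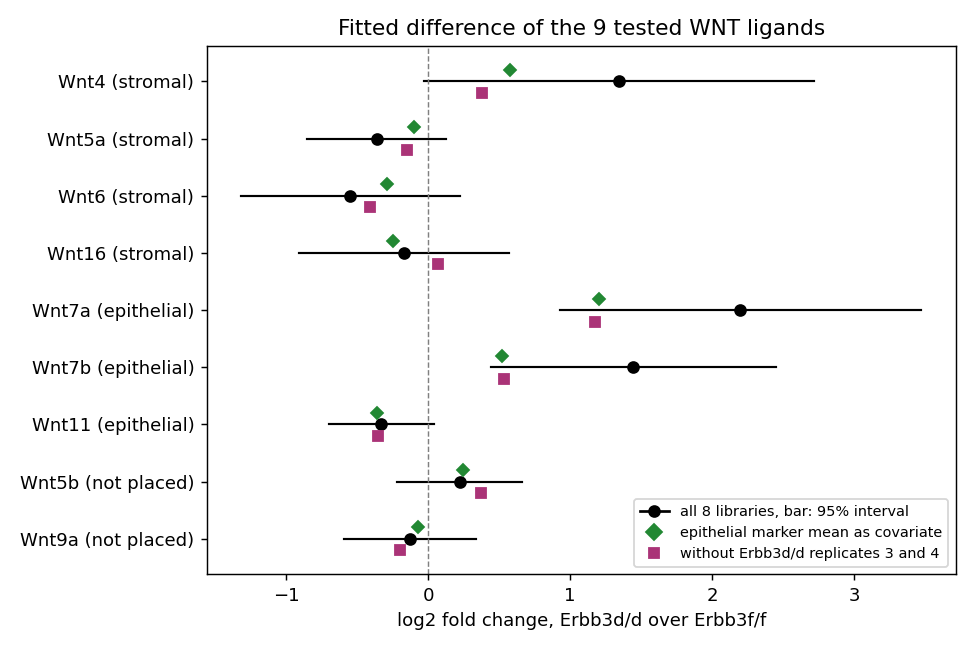
Fitted log2 fold change (horizontal axis, Erbb3d/d over Erbb3f/f) of the 9 tested WNT ligands, with 95% intervals from all 8 libraries and the values under other settings. Wnt7a moves from 2.20 to 1.2 with the epithelial covariate, and the intervals of Wnt7a and Wnt7b are the ones that lie above 0.

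Among the ligands, Wnt7a was most like Wnt7b and Wnt4 (Pearson r 0.94 of log2 CPM with each over 8 libraries, a description with no p). Over 14517 genes, those most like Wnt7a were the gap junction gene Gjb2 (r 0.99), App and Plat, the tissue plasminogen activator. Among those most like Wnt7b were the keratin gene Krt7 (r 0.98) and Egln3. Wnt4 was most like Wfs1 (0.99), Rab1 and Uck1, and Wnt11 was most like Tor2a (0.98). Each tested ligand had a close match among these genes, and the weakest best match was at r 0.957, for Wnt16. With 8 libraries and so many genes compared, an r of this size does not single out a ligand.

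Of 11 genes that make, release or hold WNT proteins, 7 had fitted values above 0 and none passed edgeR. Porcn, which adds the lipid, gave 17.8 ± 3.74 and 16.8 ± 3.26 CPM (SD, n = 4), and Wls, the carrier to the cell surface, 208 ± 18.9 and 221 ± 18.9. The lowest p was that of Gpc3, a glypican, at 45.3 ± 11.3 and 29.1 ± 5.08 CPM (log2 fold change -0.64, SE 0.19, edgeR adjusted p = 0.296).

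Of 16 receptor genes, 15 were tested and 10 had fitted values above 0. Fzd10, a Frizzled receptor, gave 12.8, 13.4, 20.6 and 34.3 CPM in Erbb3f/f and 33.8, 35.8, 77.5 and 88.0 CPM in Erbb3d/d. Erbb3d/d replicates 3 and 4 again were highest. Its log2 fold change was 1.54 (SE 0.42, edgeR adjusted p = 0.284), and DESeq2 called it (adjusted p = 0.00499). The log2 fold change was 0.80 with the epithelial and 2.23 with the smooth muscle marker mean as covariate. Ror2, the receptor of Wnt5a, had 91.8 ± 13.5 and 136 ± 31.0 CPM (SD, n = 4; edgeR adjusted p = 0.285).

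Secreted modulators were mixed, with 10 of 15 tested, 6 above 0 and none called by edgeR over all 8 libraries. Wif1, which binds WNT proteins outside the cell, gave 0, 1.88, 0.0786 and 2.26 CPM in Erbb3f/f and 9.63, 6.65, 6.70 and 9.12 CPM in Erbb3d/d. The groups did not overlap, at low levels (log2 fold change 2.98, SE 0.81, edgeR adjusted p = 0.284). Among the 10 tested modulators, 2 had groups without overlap, against 5.04% of all genes. Rspo3, which strengthens WNT signals, had 27.1 ± 3.86 and 62.6 ± 31.3 CPM (SD, n = 4; edgeR adjusted p = 0.286, DESeq2 adjusted p = 0.0120). Its log2 fold change was 1.21, and 1.43 with the epithelial and 0.30 with the smooth muscle marker mean as covariate. Sfrp2, a soluble decoy, had 658 ± 54.3 and 511 ± 227 CPM (edgeR adjusted p = 0.607, and 0.0395 without Erbb3d/d replicate 2).

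Within the β-catenin branch, 10 of the 16 transducers that carry the signal had fitted values above 0. The β-catenin gene Ctnnb1 had 820 ± 39.1 and 920 ± 82.0 CPM (SD, n = 4), and none of the 16 had an unadjusted edgeR p under 0.05. Of the common transcriptional targets of the branch, 14 of 16 tested had fitted values above 0, beside 48% of all genes. Notum is also on the list of secreted modulators. Their median log2 fold change was 0.33, against -0.01 over all genes. None passed edgeR, and 8 had an unadjusted p under 0.05, all higher in Erbb3d/d, against 6.64% of all genes in that direction. DESeq2 called 3, Lgr5, Notum and Rnf43, against 1.78% of all genes.

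Axin2, the feedback inhibitor often read as a WNT reporter, gave 157, 144, 217 and 208 CPM in Erbb3f/f and 240, 253, 277 and 247 CPM in Erbb3d/d. All Erbb3d/d libraries lay above all Erbb3f/f libraries, which by itself fixes the exact permutation p at 0.0286. For Axin2 the log2 fold change was 0.48 (SE 0.13, edgeR adjusted p = 0.280). With the epithelial marker mean as covariate it was 0.52. In that fit 14 of 16 targets were above 0 with a median of 0.28, and 3 had an unadjusted edgeR p under 0.05. They were not all the same genes, since Wisp1 fell below 0 (-0.027) and Apcdd1 rose above it (0.23). With the smooth muscle marker mean as covariate, 13 of 16 were above 0 with a median of 0.47, and 6 had such a p. Over all genes the median was -0.0059 in the epithelial and -0.003 in the smooth muscle fit. The matching shares of all genes were not computed for these fits.

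Of the 16 targets, 4 had groups without overlap, against 5.04% of all genes. Besides Axin2 these were Rnf43, Lgr5 and Notum. Rnf43, which removes Frizzled from the surface, had 27.7 ± 7.76 and 47.4 ± 9.83 CPM (SD, n = 4). Lgr5, a receptor for R-spondins, had 7.61 ± 4.42 and 21.3 ± 5.97 CPM (SD, n = 4). Notum, which strips the lipid from WNT, had 10.5 ± 6.38 and 30.2 ± 11 CPM (SD, n = 4). For Rnf43, Lgr5 and Notum, the log2 fold changes were 0.78, 1.5 and 1.54. They were 0.38, 1.06 and 1.0 with the epithelial and 0.84, 2.06 and 2.23 with the smooth muscle marker mean as covariate. Lef1, a TCF/LEF factor that is itself a target, had a lower mean in Erbb3d/d, with overlap, at 114 ± 20.9 and 63.6 ± 37.8 CPM (log2 fold change -0.85, edgeR adjusted p = 0.432). Without Erbb3d/d replicates 3 and 4, 15 of 16 targets had fitted values above 0 with a median of 0.36, and 3 had an unadjusted edgeR p under 0.05. The median over all genes in that fit was -0.011, and the matching shares of all genes were not computed. The part of the epithelial and smooth muscle levels in these target values was not tested.

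**Figure D5:**
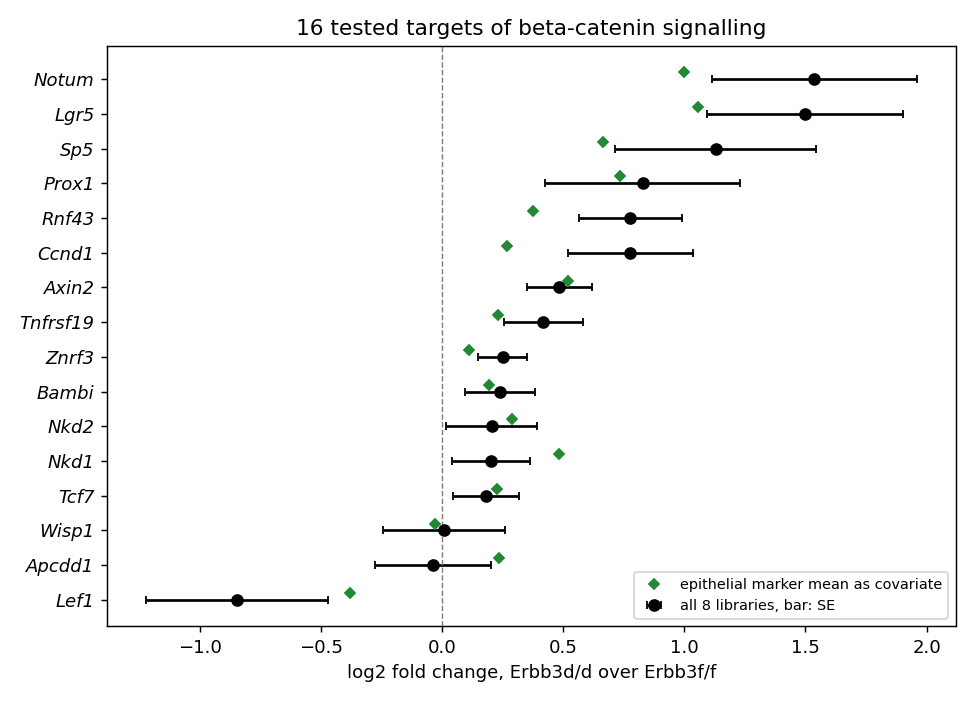
Fitted log2 fold change (horizontal axis, Erbb3d/d over Erbb3f/f) of 16 tested targets of β-catenin signalling, with bars of 1 SE and the value with the epithelial marker mean as covariate. Lef1 (-0.85) lies on the opposite side from Notum (1.54), Lgr5 (1.5) and Axin2 (0.48).

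In the planar polarity set, 3 of 13 genes had fitted values above 0 and none passed edgeR, none at an unadjusted p under 0.05 either. Celsr2, an adhesion receptor of that branch, had 41.0 ± 11.3 and 60.0 ± 22.3 CPM (SD, n = 4), and Daam2, a formin that acts downstream of Dishevelled, 95.9 ± 5.60 and 78.6 ± 15.5.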

How the data were processed

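The authors deposited 1 table of raw read counts per library. HISAT2, SAMtools, HTSeq and StringTie and the build mm10/GRCm38 are named per the submitters' processing notes. The annotation and counting options are not given in the sources used here. TRIzol extraction, poly(A) enrichment and non-directional paired-end sequencing are given per the labels. Between 27.0% and 29.1% of entries lay in genes, and the 5 closing lines of each table that name no gene were left out of library sizes. Genes were kept by filterByExpr, scaled by TMM and tested in edgeR 4.0.16 (glmQLFit, robust; genotype only; R 4.3.3), with Benjamini-Hochberg adjustment at 0.05 over 14598 genes. Single values were also compared by an exact permutation test on log2(CPM + 0.5), over 70 assignments. Log2 CPM used a prior count of 2. DESeq2 1.42.0, other scalings, covariates and left-out libraries were alternatives. In simulated counts the edgeR test recovered 74% of 2-fold and 94% of 4-fold changes (100 genes each) over 14472 genes, with 21 false calls. The changed genes had a mean of at least 5 CPM. Differences shared by many genes of a library were not simulated, so these rates need not hold for the real libraries. All listed members were named. From other lists, the text names genes called or with the smallest p in each direction, genes among the 3 most like a ligand (1 is not reported here) and, chosen after their values were seen, further genes with known roles. The members and lists were chosen with earlier results of these data known.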

Additional observations from a re-analysis of the deposited data

Results flagged for a closer look

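In Erbb3d/d replicate 1, Wnt5b stood at 61.7 CPM, well above the next highest library of that genotype at 42.1 CPM. The gap was 0.933 of the range of the group, above Dixon's 95% critical value for 4 samples. Of 36 groups of 4 examined, 1 stood out in this way, and chance alone gives about 1 in 20, or 1.8.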

How the results depend on the processing

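Depth limits Wnt2, with at most 14 reads in a library, and the spread within both genotypes limits Wnt4, Wnt7a and Wnt7b. The highest library exceeded the lowest 5.14-fold in Erbb3f/f and 4.56-fold in Erbb3d/d for Wnt4. These values were 3.50 and 4.52 for Wnt7a and 2.95 and 3.39 for Wnt7b. Under RLE, upper quartile and total count scaling, 0 genes were called and all 9 tested ligands kept their direction. DESeq2 called 270 genes, among them 2 ligands. Leaving out 1 library at a time gave 0 to 259 called genes, 259 of them without Erbb3d/d replicate 2, and 0 called ligands each time. The log2 fold change then ran from 1.85 to 2.73 for Wnt7a, 1.13 to 1.72 for Wnt7b, 1.05 to 1.84 for Wnt4 and -0.39 to -0.18 for Wnt11, -0.51 to -0.18 for Wnt5a, -0.71 to -0.34 for Wnt6 and 0.057 to 0.43 for Wnt5b. The balance of epithelial and stromal ligands ran from 0.59 to 1.0.

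The direction of some small differences turned. Wnt9a ran from -0.29 to 0.034 and Wnt16 from -0.40 to 0.011 when 1 library was left out, with the positive values without Erbb3f/f replicate 3 and without Erbb3d/d replicate 4. With the smooth muscle marker mean as covariate, Wnt6 stood at 0.28 and Wnt9a at 0.33. Without Erbb3d/d replicates 3 and 4 together, an alternative chosen after seeing the data, Wnt16 stood at 0.068. The cause was not tested.

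The replicate numbers are shared between genotypes, and were not taken to pair the libraries: same-numbered libraries correlated at 0.0959 to 0.221 in their deviations from the group means and differently numbered ones at -0.296 to 0.302. As a hint from the data, 5 of 8 libraries correlated best with their own number. With the replicate number as a block, edgeR called 52 genes (0.356%) and 1 ligand, Wnt7a (log2 fold change 2.16, adjusted p = 0.0355).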

Other observations

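Transcription factors and signals that work beside WNT ligands in the uterus showed a mixed picture, with 6 of 11 tested genes above 0 and none called by edgeR over all 8 libraries. Bmp2, a signal of decidualization, gave 17.9, 13.7, 23.1 and 20.6 CPM in Erbb3f/f and 30.6, 28.0, 32.9 and 37.7 CPM in Erbb3d/d. All Erbb3d/d libraries lay above all Erbb3f/f libraries (log2 fold change 0.78, SE 0.17, edgeR adjusted p = 0.195). DESeq2 called it with an adjusted p of 0.00573, and edgeR without Erbb3d/d replicate 2 gave 0.0475. Msx2, a homeobox factor of the uterine epithelium and stroma, had 12.9 ± 5.65 and 37.8 ± 19.1 CPM (SD, n = 4), also without overlap, with an edgeR adjusted p of 0.279 and a DESeq2 adjusted p of 0.0050. Its log2 fold change was 1.56, and 0.85 with the epithelial and 2.16 with the smooth muscle marker mean as covariate. Of the 11 tested genes, 2 had groups without overlap, against 5.04% of all genes. Hoxa10, needed for stromal responses to progesterone, had 1052 ± 63.8 and 721 ± 258 CPM, with an edgeR adjusted p of 0.383 over all libraries and 0.0452 without Erbb3d/d replicate 2. Foxa2, the factor that marks glands, had 8.08 ± 5.61 and 5.68 ± 2.57 CPM (edgeR adjusted p = 0.722).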
